A study of Homo sapiens with 7 samples.

Results

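The 10 genes described here make the pigment melanin or build and move the organelle that holds it, the melanosome. They were taken by name from the table of normalized counts, and all 10 (TYR, TYRP1, DCT, PMEL, MLANA, GPR143, OCA2, SLC45A2, SLC24A5 and RAB27A) were found among its 21305 genes. All of them passed the minimum mean of 10 normalized counts that left 15420 genes for testing. The samples were 7 RNA-seq libraries of 501Mel, an established human melanoma cell line. Each culture carried 1 short hairpin RNA, a small RNA that lowers a matching transcript, from a vector switched on by doxycycline. In 3 libraries the hairpin was shlacZ, the control against a bacterial gene, and in 2 libraries each it was sh4 or sh8, both against the long non-coding RNA GRASLND. All groups, the control included, were induced with doxycycline (2 µg/mL, 3 days). The cells were pools selected with puromycin after transduction, not single clones. Which of sh4 and sh8 is shGRAS1 and which shGRAS2, the names under which the study lists its hairpins, is not given by the labels. The methods speak of independent biological replicates for cell-based assays in general, and the labels number the replicates without saying that they were separate cultures. The p-values measure the spread between these libraries, which would be technical if they were not.

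Melanin is made from tyrosine inside the melanosome. Tyrosinase starts the pathway, and 2 related enzymes work on later intermediates. The pigment settles on fibrils built from PMEL, while channels and carriers set the ions and the pH of the organelle, and small GTPases move it along the cytoskeleton. In melanocytes and in differentiated melanoma cells many of these genes are targets of the transcription factor MITF, which binds E-box letters known as the M-box.

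The M-box core CATGTG is shown first, since many of these genes are known as targets of MITF. RefSeq promoter windows (build GRCh38.p14, 250 bases before to 50 bases after a start) were held for 8 of the genes in 13 windows, because DCT and RAB27A have several starts. Those of PMEL and SLC45A2 were not used here. The core, read on both strands, was found in 6 of the 13 windows, in TYR, TYRP1, DCT, GPR143, OCA2 and SLC24A5. Of all 35116 windows, 11.1% held it. The longer form TCATGTG, which overlaps the core, was found in 5 of the 13 windows and in 2.92% of all windows. The palindromic E-box CACGTG was in 0 of the 13 windows and in 7.26% of all. These are matches of letters and not bound sites, and nothing in these data measured binding. One window of 28 bases is printed below for each of the 6 genes, 5′ to 3′ on the strand of the gene, with the core in capitals.
TYR at chr11:89177760-89177787, plus strand: gaaaagtcagtCATGTGcttttcagagg
TYRP1 at chr9:12693230-12693257, plus strand: tggaagggaatCATGTGctgatcaagtc
DCT at chr13:94479800-94479827, minus strand: gcactttgggtCATGTGctaatgatgag
OCA2 at chr15:28099452-28099479, minus strand: gtgggcggggcCATGTGggcagctttgt
SLC24A5 at chr15:48120964-48120991, plus strand: aggagactcctCACATGatccagtttaa
GPR143 at chrX:9765892-9765919, minus strand: gaggcccagggCACATGatgccgccccc
The core began 104 bases before the start in TYR, 144 in TYRP1 and 134 in DCT, the enzymes of the pathway. It began 153 bases before the start in OCA2, 15 in SLC24A5 and 61 in GPR143, and the last pair carry it on the opposite strand. TYR, TYRP1, DCT and GPR143 each held a further core in the same window.

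**Figure D1:**
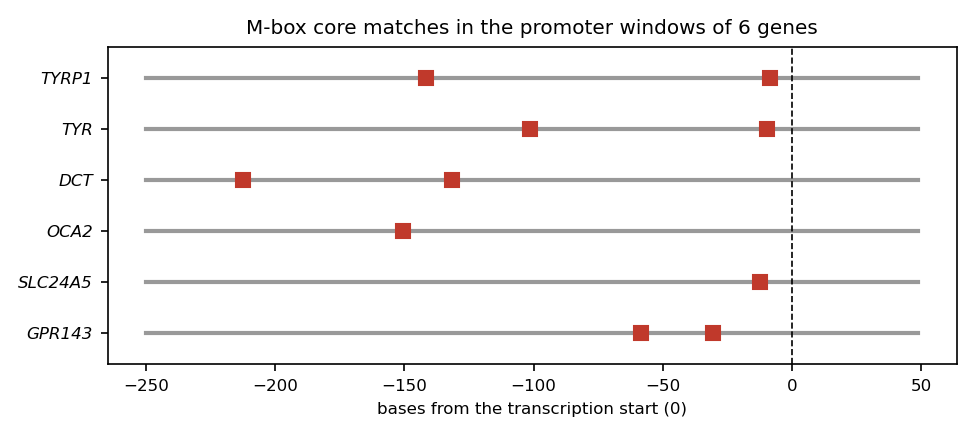
Position of the M-box core (squares, either strand) in the promoter windows of 6 genes, in bases from the transcription start at 0, with a grey line for each window of 300 bases. TYRP1, TYR, DCT and GPR143 have 2 matches each, OCA2 and SLC24A5 have 1, and all lie before the start.

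GRASLND, the targeted transcript, checks the labels. Its normalized count was 309, 329.9 and 289.7 in the shlacZ libraries, 175 and 131 under sh4, and 227 and 163 under sh8. All 4 knockdown libraries lay under all 3 controls. With both hairpins together the log2 fold change was -0.85 (SE 0.19, adjusted p 0.0402 by limma), and the two-sided p of an exact permutation test was 0.0571 (0.0286 is the smallest possible with 35 splits). Under sh4 alone it was -1.02 (SE 0.21, adjusted p 0.00662), and under sh8 -0.68 (SE 0.21, adjusted p 0.110). Reads counted in genes ranged from 13337317 to 22855232 per library, which is not the full sequencing depth. The first shlacZ library stood apart from the other shlacZ libraries, since the chi-square of its reads averaged 28.5 and 27.8 per gene against them and 8.64 between these. No pair of replicates agreed within sampling noise. The melanocytic markers MITF, SOX10, PAX3, S100B and EDNRB were all present, with summed counts of 36027 to 38411 with shlacZ, 19151 to 21725 with sh4 and 33003 to 34121 with sh8. They did not move as 1 group. Under sh4, EDNRB (log2 fold change -1.62, adjusted p 0.000110), SOX10 (-1.19, adjusted p 0.000793) and MITF (-0.71, adjusted p 0.00483) fell, whereas PAX3 (0.11, adjusted p 0.545) and S100B (0.45, adjusted p 0.102) did not pass. Of the fibroblast markers 1 of 6 had a value (COL1A1, mean 9.14 in the control), of the keratinocyte markers 2 of 6, of the endothelial markers 0 of 5, and of the immune markers 1 of 6. That immune marker was LYZ, which counted 0 to 4.19 with shlacZ, 337 to 492 with sh4 and 5.27 to 7.28 with sh8. LYZ thus moved with the sh4 group, while PTPRC, CD14 and the other immune markers had no value, and its part in the results was not tested.

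The RNA-seq of the study asked which transcripts change when GRASLND is lowered. The study also measured MITF and MelanA protein by Western blot after knockdown, which is not compared here. For the pigment genes the hairpins gave different depths of change. Under sh4, 8 of the 10 genes were lower than in the control, led by DCT, TYRP1 and MLANA, while TYR, the enzyme that starts the pathway, and the carrier SLC45A2 did not pass the test. Under sh8, 9 of 10 had a log2 fold change under 0, as had 7889 of all 15420 genes tested, but 0 passed. Together the 10 genes took 0.709% to 0.738% of all normalized counts in the control, where their share was 0.312% and 0.352% with sh4 and 0.526% and 0.544% with sh8. In bulk RNA, fewer cells that express a gene and less RNA per cell cannot be told apart.

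The enzymes differed from each other. TYR (ENSG00000077498, chromosome 11, 89177875 to 89295759, plus strand, 5 exons) is tyrosinase, which catalyses the rate-limiting first step. It measured 8795, 8192 and 9420 normalized counts in the shlacZ libraries, 10288 and 9183 under sh4, and 9200 and 11314 under sh8. The 3 groups overlapped. Its log2 fold change was 0.15 under sh4 (95% interval -0.15 to 0.44, adjusted p 0.464) and 0.22 under sh8 (-0.08 to 0.51, adjusted p 0.420). The intervals leave room for a small rise but not for a fall of the size seen in TYRP1 or DCT under sh4. TYRL, a pseudogene that is not analysed here, copies the last exons of TYR almost exactly, so the assignment of those reads is uncertain.

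TYRP1 (ENSG00000107165, chromosome 9, 12685439 to 12710285, plus strand) is the tyrosinase-related protein that stabilises tyrosinase and is held to act on a late intermediate. Counts of TYRP1 were 36836, 52194 and 45911 in the control, 10416 and 11194 under sh4, and 32891 and 29980 under sh8. The sh4 libraries stood far below all others, and the sh8 libraries lay between them and the control without overlap. The mean fell by 76.0% under sh4, from 44980.3 ± 7721 (SD, n = 3) to 10805 ± 550.4 (SD, n = 2). The log2 fold change was -2.04 (SE 0.16, adjusted p 8.00e-05). Under sh8 it was -0.50 (95% interval -0.85 to -0.15), which did not pass (adjusted p 0.122). The sh8 value passed without the first shlacZ library, the lowest control for this gene (-0.64, adjusted p 0.0155). It did not without the second or the third (adjusted p 0.339 and 0.274), and passed in 2 of 17 alternative settings of the fit.

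DCT (ENSG00000080166, chromosome 13, 94436811 to 94479682, minus strand), dopachrome tautomerase, turns dopachrome into a carboxylated intermediate. It was the member with the deepest fall. DCT stood at 16036, 11423 and 9970 normalized counts in the control, at 1704 and 893 under sh4, and at 6405 and 5805 under sh8. Again the 3 groups were ordered control, sh8, sh4 with no overlap. The sh4 mean was 10.4% of the control mean and the sh8 mean 48.9%. In limma the log2 fold change was -3.31 under sh4 (SE 0.26, adjusted p 8.48e-05) and -1.0 under sh8 (SE 0.26, adjusted p 0.0734). The sh8 value passed in 4 of 17 alternative settings, among them the fit of sh8 and shlacZ alone (adjusted p 0.0444). It ran from -1.15 to -0.81 over these settings, with -1.07 and -0.93 without the first or the second sh8 library.

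**Figure D2:**
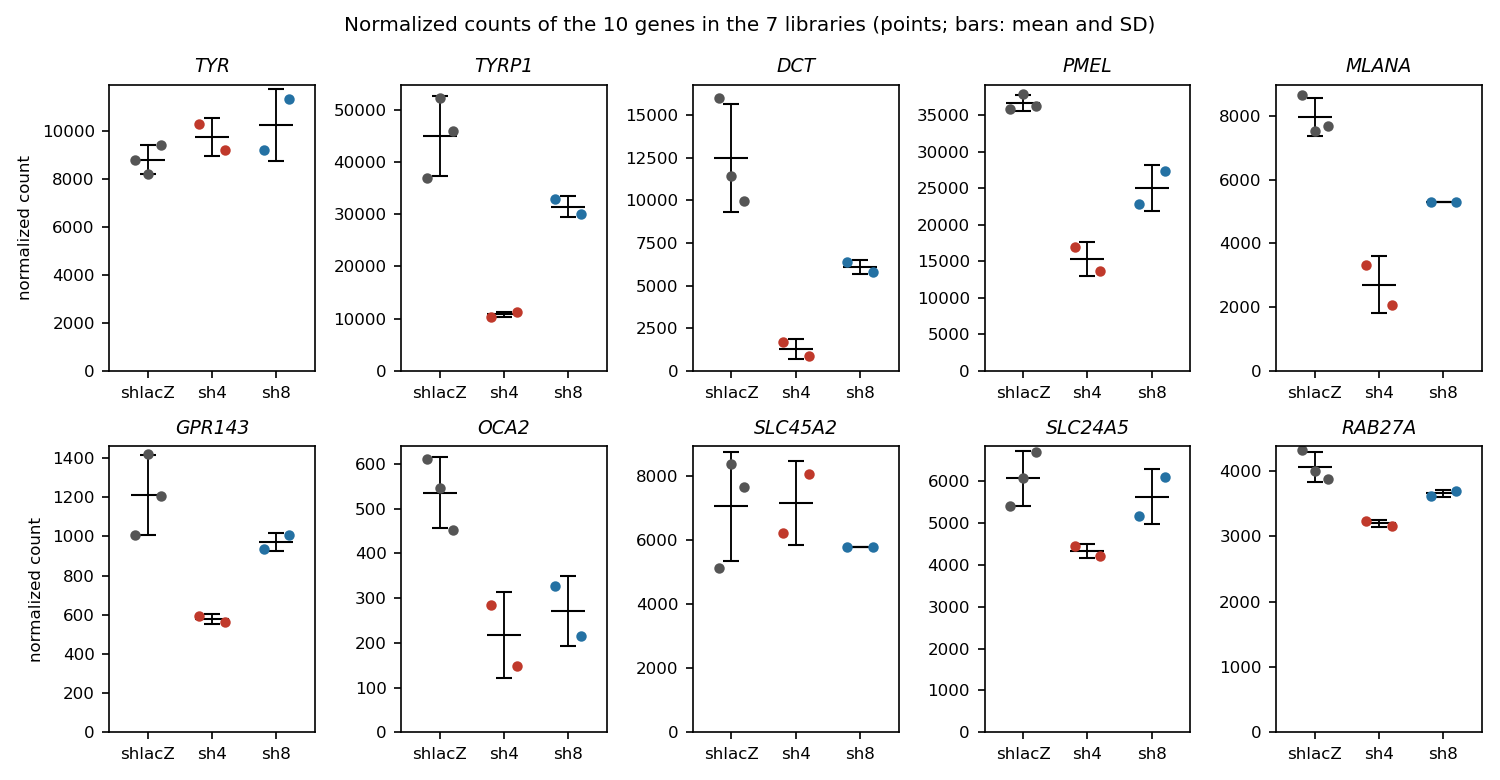
Normalized counts of the 10 genes (y axes start at 0) in the shlacZ (n = 3), sh4 (n = 2) and sh8 (n = 2) libraries. Points are libraries and bars the mean with its SD. DCT, TYRP1, PMEL, MLANA and GPR143 are lowest in the sh4 libraries, whereas the groups overlap in TYR, whose control mean of 8803 lies under the sh4 mean of 9736.

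PMEL and MLANA serve the structure of the early melanosome. PMEL (ENSG00000185664, chromosome 12, 55954105 to 55973317, minus strand, 11 exons) forms the amyloid fibrils on which melanin is laid down. Its count was even in the control, at 35872, 37928 and 36173, and was 16968 and 13673 under sh4 and 22806 and 27295 under sh8. All hairpin libraries lay below all controls. The log2 fold change was -1.27 under sh4 (SE 0.14, adjusted p 0.000337) and -0.55 under sh8 (SE 0.14, adjusted p 0.0671). The annotated span of PMEL overlaps CDK2 on the opposite strand, which was itself lower under both hairpins (log2 fold change -1.0 and -0.65, adjusted p 0.000485 and 0.0191 for sh4 and sh8). The kit was stranded, but the strand setting of the quantification is not given in the sources used here. Any shared reads can thus not be told apart, and overlap of exons was not checked.

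MLANA (ENSG00000120215, chromosome 9, 5890889 to 5910606, plus strand) encodes Melan-A, a melanosome protein that binds PMEL and is widely used as a melanoma marker. MLANA reached 8640, 7531 and 7690 normalized counts in the control, 3330 and 2077 under sh4, and 5298 and 5291 under sh8. The groups were separate, with sh8 between the others. The sh4 fold change was -1.59 on the log2 scale (SE 0.18, adjusted p 0.000354), a fall of 66.0%. Under sh8 the log2 value was -0.58 (95% interval -0.98 to -0.19, adjusted p 0.113). It passed in 3 of 17 alternative settings. These were the fit of sh8 and shlacZ alone (adjusted p 0.0453) and the fits without the first or the second sh4 library. The sh4 libraries enter that sh8 test through the shared spread alone.

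Under sh4 the receptor and the carriers of the melanosome membrane ran from a log2 fold change of -1.36 (OCA2) to 0.04 (SLC45A2). GPR143 (ENSG00000101850, chromosome X, 9725346 to 9786297, minus strand), a receptor of the melanosome whose loss gives enlarged organelles, stood at 1007, 1418 and 1207 normalized counts in the control, 595 and 561 under sh4, and 937 and 1005 under sh8. The sh4 libraries were clearly low, while the higher sh8 library nearly met the lowest control. Its log2 fold change was -1.05 under sh4 (SE 0.15, adjusted p 0.00142) and -0.30 under sh8 (adjusted p 0.329). OCA2 (ENSG00000104044, chromosome 15, 27754875 to 28099315, minus strand), a membrane protein linked to chloride flow and a higher pH in the melanosome, had the lowest counts of the 10. They were 610.0, 546 and 452 in the control, 285 and 149 under sh4, and 327 and 216 under sh8. Both hairpins lay below the control and overlapped with each other. OCA2 changed by -1.36 on the log2 scale under sh4 (SE 0.28, adjusted p 0.00740) and by -1.0 under sh8 (SE 0.28, adjusted p 0.0911). The sh4 value rested on the second sh4 library, since without it the log2 fold change was -0.90 with an adjusted p of 0.0777. At its lowest OCA2 had 200 reads in a library, for which counting alone gives an error of 7.07%.

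SLC45A2 (ENSG00000164175, chromosome 5, 33944623 to 33984693, minus strand), a carrier of the sugar transporter type that affects melanosome pH, measured 5130, 8374 and 7664 normalized counts in the control, 6222 and 8077 under sh4, and 5788 and 5779 under sh8. The control libraries spread widely and enclosed all hairpin libraries. Its log2 fold change was 0.04 under sh4 (95% interval -0.41 to 0.48, adjusted p 0.918) and -0.26 under sh8 (-0.70 to 0.19, adjusted p 0.537). The sign under sh4 changed without the first shlacZ library (-0.18). SLC24A5 (ENSG00000188467, chromosome 15, 48120990 to 48142672, plus strand), a potassium-dependent sodium and calcium exchanger needed for dark pigment, was at 5404, 6067 and 6698 in the control, 4441 and 4215 under sh4, and 5156 and 6090 under sh8. Both sh4 libraries lay below every control, and of the sh8 libraries the first did. SLC24A5 fell by 0.48 on the log2 scale under sh4 (SE 0.13, adjusted p 0.0250), but the call was lost when the second shlacZ library, the third shlacZ library or either sh4 library was left out (adjusted p 0.0680, 0.0983, 0.0992 and 0.141).

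RAB27A (ENSG00000069974, chromosome 15, 55202966 to 55319113, minus strand) is the small GTPase that ties the mature melanosome to its actin motor, and it works in other secretory cells as well. It counted 4326, 3997 and 3883 in the control, 3241 and 3167 under sh4, and 3624 and 3693 under sh8. The libraries fell into 3 tight groups without overlap. The differences were small, at -0.34 under sh4 (SE 0.11, adjusted p 0.0432) and -0.15 under sh8 (SE 0.11, adjusted p 0.489). The sh4 value did not pass in any of the 7 fits that left out 1 library. Without 1 shlacZ library the adjusted p ran from 0.0505 to 0.0965.

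Set against all genes, the share of pigment genes that passed under sh4 was high. There 8 of 10 were lower and 0 higher, where 11.9% of all tested genes passed lower and 10.5% higher. With a log2 fold change under -1 as well, 6 of 10 were called (DCT, TYRP1, MLANA, OCA2, PMEL and GPR143), against 3.37% of all genes. In the same 8 genes both sh4 libraries lay below all shlacZ libraries, which held for 25.6% of all genes. The median log2 fold change of the 10 was -1.16, and that of all genes -0.01. The genes were listed with earlier results of these libraries known, so these shares describe the list and do not test it.

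Under sh8, 0 of 10 passed in either direction, where the background was 1.54% lower and 1.38% higher, and 0.506% lower with a log2 fold change under -1. An unadjusted p under 0.05 was reached by 5 of the 10 (DCT, OCA2, PMEL, MLANA and TYRP1), all lower. Of all 15420 genes 2858 reached it, 1494 of them lower. In 7 of 10, both sh8 libraries lay below all controls, against 17.9% of all genes, and the median log2 fold change was -0.40. Each hairpin was compared with the same 3 control libraries, so these sets of values are not independent. Without the first shlacZ library 7 of 10 passed under sh4 and 2 of 10 under sh8 (TYRP1 and PMEL). Of the 99 other genes followed below, 52 and 13 passed in that fit, against 43 and 6 with all libraries. The share of all genes that passed in that fit is not given here.

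**Figure D3:**
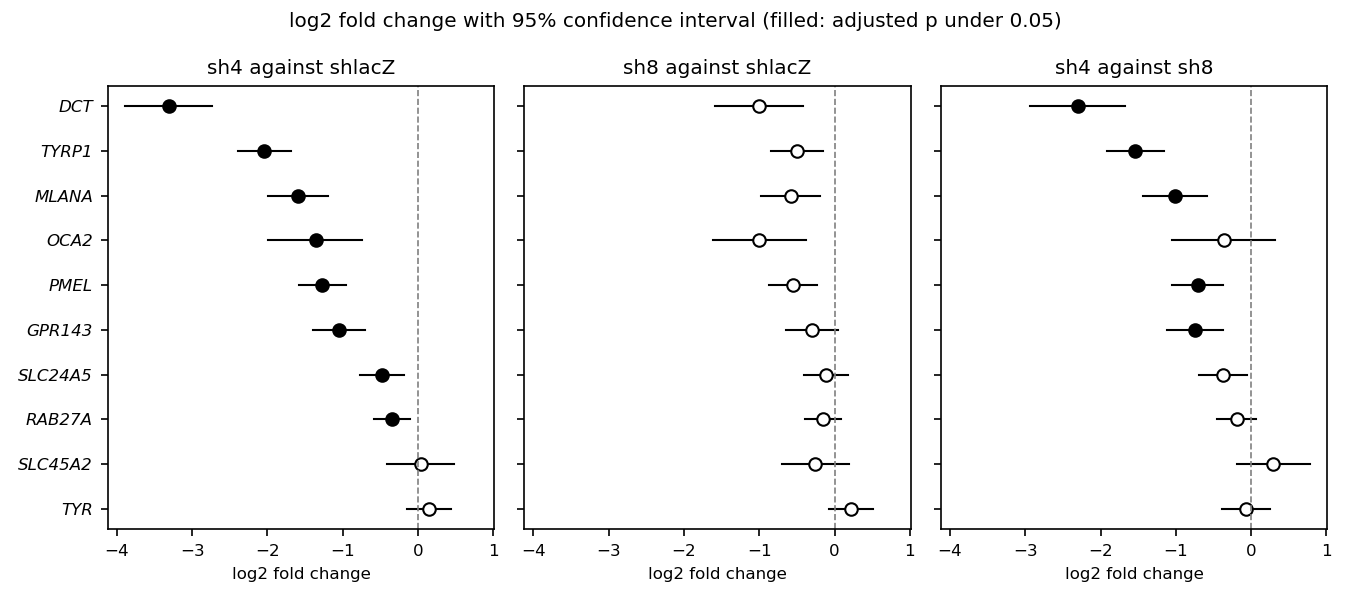
log2 fold change (x axis) with 95% confidence interval of each gene under sh4 and sh8 against shlacZ and under sh4 against sh8, where filled points passed an adjusted p of 0.05. Under sh4 the genes run from DCT at -3.31 to TYR at 0.15, and all sh8 points are open.

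The difference between the hairpins was tested directly. It passed for 5 of 10 genes, all lower under sh4 (background 3.33% lower and 3.67% higher). These were DCT (-2.30, adjusted p 0.00231), TYRP1 (-1.54, adjusted p 0.00182), MLANA (-1.01, adjusted p 0.0142), GPR143 (-0.75, adjusted p 0.0273) and PMEL (-0.71, adjusted p 0.0222) on the log2 scale. Of these DCT, TYRP1 and MLANA also had a log2 difference under -1, as did 1.26% of all genes. In 7 of 10 both sh4 libraries lay under both sh8 libraries, compared with 27.6% of all genes. For OCA2 the difference was -0.36 with an interval from -1.05 to 0.32 (adjusted p 0.543), and for TYR -0.07 from -0.39 to 0.25 (adjusted p 0.824). DCT and TYRP1 passed in each fit that left out a library. PMEL no longer passed without the second sh4 library (log2 -0.56) or either sh8 library (-0.84 and -0.58). MLANA did not pass without the same libraries (-0.67, -1.01 and -1.01). GPR143 did not when 1 of the 4 hairpin libraries was left out (-0.79, -0.70, -0.80 and -0.70). GRASLND itself did not differ past the threshold between sh4 and sh8 (-0.34, 95% interval -0.84 to 0.16, adjusted p 0.421).

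With both hairpins pooled, as the study compared them, 2 of 10 genes passed, both lower (background 2.06% lower and 2.55% higher). They were OCA2 (-1.18, SE 0.25, adjusted p 0.0334) and PMEL (-0.91, SE 0.22, adjusted p 0.0443). Each passed in 2 of the 7 fits without 1 library (adjusted p over all alternatives 0.00896 to 0.145 and 0.00120 to 0.204). DCT had a larger log2 fold change of -2.16 but an SE of 0.60 (adjusted p 0.0682), and TYRP1 one of -1.27 with an SE of 0.40 (adjusted p 0.0909). The pooled fit counts the gap between the hairpins as spread. When the mean of both hairpins was taken in the fit with 3 groups, 6 of 10 passed, with TYRP1, DCT, MLANA and GPR143 added. That fit also passed 35 of the 99 other genes followed below, where the pooled fit passed 10. The share of all genes that passed it is not given here. All 4 knockdown libraries lay under all 3 controls for 7 of 10 genes, as for 11.0% of all genes.

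The make-up of the group also shifted. Per kilobase of the canonical transcript, PMEL had the highest control level of the 10 (17242 ± 522 normalized counts per kb, SD, n = 3), the 36th among 15408 genes ranked. TYRP1 followed at 15532 ± 2666, which overlapped with PMEL. TYR (4269 ± 298), SLC45A2 (4083 ± 987), MLANA (3417 ± 258), SLC24A5 (3223 ± 345) and DCT (2459 ± 624) came next, and neighbours in this order overlapped. RAB27A (1180.4 ± 66.8), GPR143 (736 ± 125) and OCA2 (171 ± 25.2) were lower and separate from each other. Under sh4, TYRP1 moved from the second to the fourth place and DCT from the seventh to the ninth, while TYR moved from the third to the second. The sh4 values of TYRP1 overlapped with those of SLC45A2, and these with those of TYR, so the second to the fourth place under sh4 are not separated. Under sh8, PMEL, TYRP1, TYR and SLC45A2 kept the first 4 places of the control. Lengths are those of 1 transcript per gene, so other isoforms would change these levels.

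**Figure D4:**
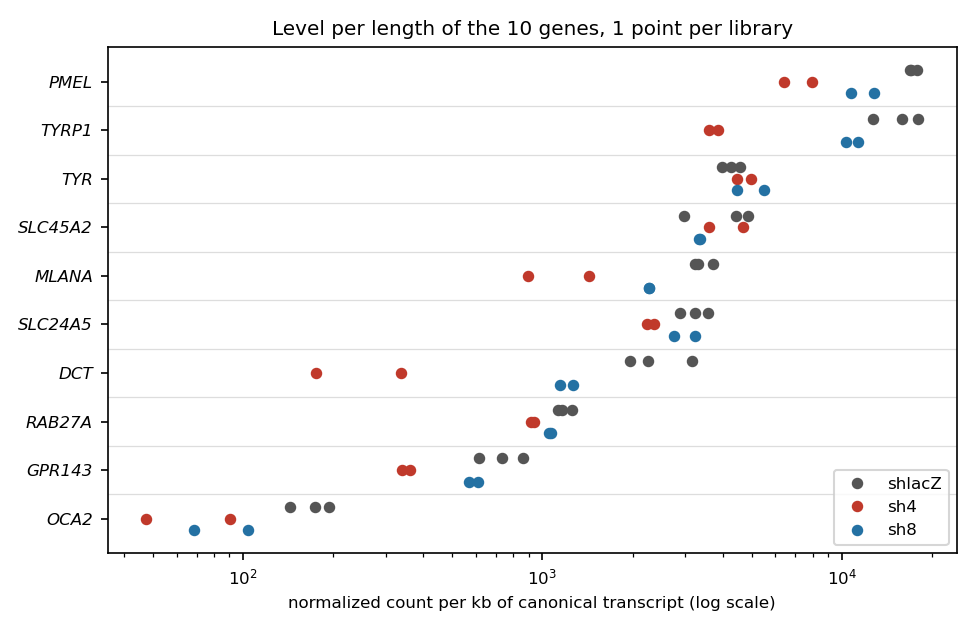
Normalized count per kilobase of canonical transcript (log axis) of each gene, 1 point per library, sorted by control mean from PMEL at 17242 down to OCA2 at 171. The sh4 points of DCT and TYRP1 lie far to the left of their control points.

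Within a library the ratio of TYRP1 to TYR was 4.19, 6.37 and 4.87 in the control, 1.01 and 1.22 under sh4, and 3.57 and 2.65 under sh8. These ratios do not depend on the scaling between libraries. The ratio of DCT to TYR was 1.82, 1.39 and 1.06 in the control, 0.166 and 0.0972 under sh4, and 0.696 and 0.513 under sh8. In both ratios all sh4 libraries were lowest and no group overlapped with another. Across the 7 libraries, the level of each gene was set beside the mean of the other 9. Pearson's r lay from 0.756 (OCA2) to 0.989 (PMEL) for 8 genes, and was -0.414 for TYR and -0.172 for SLC45A2. These r values are a description over 7 libraries in 3 groups.

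MITF, the factor named above, measured 22076, 20552 and 17326 normalized counts in the control, 12619 and 11635 under sh4, and 19031 and 17418 under sh8. Only the sh4 libraries lay below the control. Its log2 fold change was -0.71 under sh4 (SE 0.13, adjusted p 0.00483) and -0.13 under sh8 (95% interval -0.43 to 0.17, adjusted p 0.658), and the hairpins differed by -0.59 (adjusted p 0.0415). Of the genes with an M-box core in a window, TYRP1, DCT, GPR143, OCA2 and SLC24A5 passed lower under sh4 and TYR did not pass. MLANA and RAB27A, with 0 matches in their windows, passed lower too. OCA2, SLC24A5 and RAB27A no longer passed in fits without 1 library, as given above. Matches of letters do not measure binding. The part of MITF in the other results was not tested.

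The same pathway was followed through 110 other genes in 4 lists, of which 99 were tested. Under sh4, 30 were lower and 13 higher past the test, and under sh8, 1 was lower and 5 higher, with the background shares given above. With both hairpins pooled, 3 were lower and 7 higher, and between sh4 and sh8, 15 were lower and 6 higher. The median log2 fold change of the 99 was -0.03 under sh4 and -0.01 under sh8. Rescaling to library totals, which moved the median of all genes by 0.10 on the log2 scale under sh4, gave 25 lower and 20 higher.

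In melanosome biogenesis (33 tested), which covers the sorting complexes that deliver cargo to the organelle, 7 were lower and 3 higher under sh4 and 0 passed under sh8. RAB32, a GTPase that directs melanosome enzymes, had a mean of 997 ± 234 in the control and 492 ± 41.0 under sh4 (log2 -0.99, adjusted p 0.00790). AP3S1 (-0.82) and AP1S2 (-0.73), small subunits of adaptor complexes, were lower under sh4 with adjusted p of 0.00189 and 0.00263. Most BLOC1 subunits did not pass, and BLOC1S5 did (-0.50, adjusted p 0.0379). In melanosome transport (16 tested), 4 were lower and 3 higher under sh4 and 0 passed under sh8. Here the largest log2 changes were rises. EXPH5, a RAB27 effector, went from 68.1 ± 20.2 to 870.2 ± 207 normalized counts (3.68, adjusted p 8.00e-05). RAB36 changed by 1.46 (adjusted p 0.00406), and SYTL2, another RAB27 effector, by 1.17 (adjusted p 0.00161). Under sh8 EXPH5, RAB36 and SYTL2 stood at 1.18, -0.20 and 0.45 (adjusted p 0.0564, 0.729 and 0.207). MYO5A, the actin motor that RAB27A reaches through melanophilin, fell (-0.48, adjusted p 0.00959), whereas MLPH, melanophilin, did not pass (-0.76, adjusted p 0.0569). MYO5A and MLPH were named for their link to RAB27A after their values were seen, as was BLOC1S5.

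Among melanosome channels, carriers and enzymes (20 tested), 5 were lower and 4 higher under sh4, and 0 lower and 3 higher under sh8. SLC24A4, an exchanger of the same family as SLC24A5, rose from 192 ± 27.5 to 853 ± 239 under sh4 (log2 2.12, adjusted p 0.000183) and 657 ± 98.5 under sh8 (1.77, adjusted p 0.00282). SLC24A5 fell past the test under sh4 and did not pass under sh8 (-0.11, adjusted p 0.704). MCOLN3, a lysosomal cation channel, rose by 1.36 under sh4 (adjusted p 0.000110) and by 0.81 under sh8 (adjusted p 0.00794). ATP6V0A1, a subunit of the proton pump, rose under both too (1.0 and 0.70, adjusted p 0.000940 and 0.0239). SLC7A11, a cystine carrier linked to the red pigment pheomelanin, rose under sh4 (1.64, adjusted p 0.000754) and stood at 0.83 under sh8 (adjusted p 0.0686). TRPM1, a melanocytic cation channel, fell from 2592 ± 376 to 619 ± 231 under sh4 (-2.11, adjusted p 0.000224) and was at 1848 ± 201 under sh8 (-0.48, adjusted p 0.262).

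Among pigment receptors, factors and other melanocytic genes (30 tested), 14 were lower and 3 higher under sh4, and 1 lower and 2 higher under sh8. SEMA6A, a semaphorin, was lower under sh4 (-1.91, adjusted p 0.000191) and stood at -0.78 under sh8 (adjusted p 0.0565). CHL1, a cell adhesion molecule, was higher under sh4 and sh8 (2.14 and 1.02, adjusted p 9.30e-05 and 0.0163). LEF1, a factor of the WNT pathway, rose under sh4 (1.73, adjusted p 0.000939) and stood at 0.83 under sh8 (adjusted p 0.0894). KIT, the receptor for stem cell factor, was higher under sh8 (0.61, adjusted p 0.0210) and did not pass under sh4 (0.31, adjusted p 0.0743). CDK2, which is listed because it neighbours PMEL and is a known MITF target, was the only one of the 99 genes lower past the test under sh8.

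**Figure D5:**
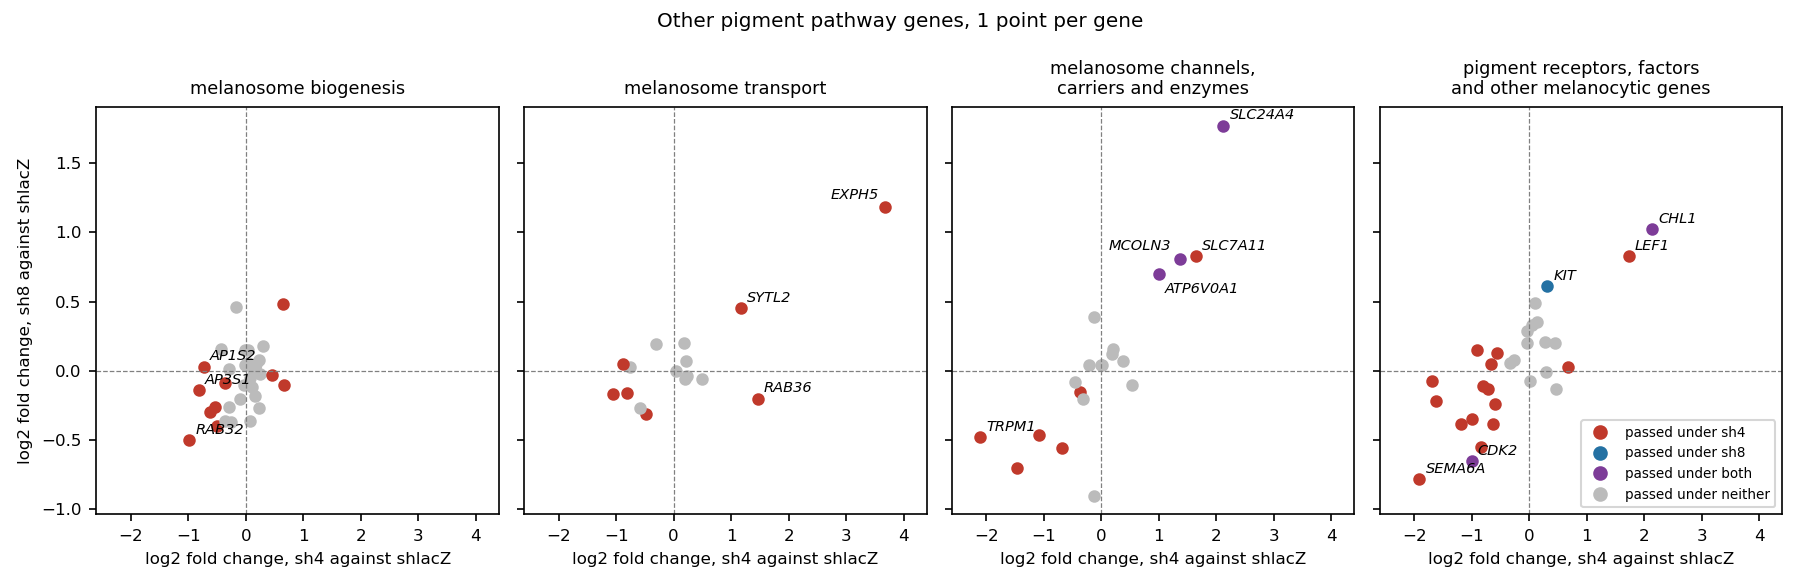
log2 fold change under sh4 (x axis) and sh8 (y axis) against the same shlacZ libraries for the 99 genes tested in the 4 lists of other pigment and melanocytic genes. Each point is 1 gene, coloured by the hairpin under which it passed an adjusted p of 0.05. SLC24A4 (2.12 and 1.77) and CHL1 (2.14 and 1.02) lie at the upper right, TRPM1 (-2.11 and -0.48) and SEMA6A (-1.91 and -0.78) at the lower left.

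Of the 20 nearest tested genes, 1 on each side of each member, 5 were lower and 5 higher under sh4 (background 11.9% and 10.5%), and 1 was lower and 0 higher under sh8 (background 1.54% and 1.38%). TGDS, the gene to the right of DCT (gap of 94372 bases), was lower under sh4 (-0.74, adjusted p 0.00968), and so was GPC5 on the other side, 1563129 bases away (-1.96, adjusted p 0.00173). AMACR, 1472 bases from SLC45A2, was higher under sh4 (0.90, adjusted p 0.00507). ERMP1, 11352 bases from MLANA, was higher under sh4 (0.76, adjusted p 0.0180) and lower under sh8 (-1.05, adjusted p 0.0192). CTSC (-0.68) beside TYR, SHROOM2 (-0.62) beside GPR143 and TARS1 (-0.49) beside SLC45A2 were also lower under sh4. GABRG3 (1.07) beside OCA2, and DGKA (1.59) and RAB5B (0.51) on the sides of PMEL, were higher. Genes whose annotated span overlaps that of a member were added after their values were seen, and there were 7. LURAP1L-AS1, a long non-coding RNA on the opposite strand across TYRP1, fell from 240.1 ± 40.8 normalized counts to 31.9 ± 12.4 under sh4 (-2.91, adjusted p 0.000135) and stood at 136 ± 1.69 under sh8 (-0.80, adjusted p 0.144). CDK2 over PMEL fell too, as given above. Others on the opposite strand rose under sh4 while their members fell, namely TBL1X over GPR143 (0.62, adjusted p 0.0184), MYEF2 over SLC24A5 (0.74, adjusted p 0.0460) and PIGB over RAB27A (0.47, adjusted p 0.0407). KIAA2026 over MLANA (0.44, adjusted p 0.0593) and PIGBOS1, on the same strand as RAB27A (-0.05, adjusted p 0.903), did not pass. These overlaps are of annotated spans, introns included, and overlap of exons was not checked. With the strand setting unknown, any reads shared by such partners cannot be told apart.

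The 5 genes outside the list whose log2 level over the 7 libraries was most like the mean profile of the 10 were FOXRED2 (Pearson's r 0.996), ANKS6 (0.995), AFMID (0.995), DIP2B (0.993) and GAS5 (0.991), from 10760 genes with a mean of at least 100. FOXRED2 measured 2583, 2787 and 2754 normalized counts in the control, 1948 and 1716 under sh4, and 2304 and 2373 under sh8. GAS5, a long non-coding RNA that hosts small nucleolar RNAs, measured 3461, 3885 and 3558 in the control, 1764 and 1497 under sh4, and 2692 and 2736 under sh8. Both were ordered control, sh8, sh4 without overlap. With 7 libraries in 3 groups such likeness is a description of the order of the groups.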

How the data were processed

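RNA-seq (ribosomal RNA depleted, stranded kit, read pairs) was run on 7 libraries. According to the study, Cutadapt trimmed the adapters, STAR aligned to hg38, Salmon quantified the genes, and the authors normalized with DESeq2. Versions and annotation are not given in the sources used here. The authors deposited 1 table of normalized counts, that is, counts divided by a size factor of each library, and not raw counts. Of the values, 100.0% were whole multiples of 1 read (tolerance 0.1 of a read), which gave the reads counted in genes for each library. Reads recovered in this way were tested with limma-voom as an alternative, and no negative binomial test was run.

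Genes with a mean of at least 10 were tested with limma 3.58.1 (R 4.3.3, empirical Bayes with trend) on log2(normalized count + 1), a scale that understates changes of low genes. The p-values were adjusted by Benjamini-Hochberg over all 15420 genes. A gene passed at an adjusted p under 0.05 and was called with an absolute log2 fold change over 1 too. Pooled hairpins were compared in a fit with 2 levels, and single hairpins in a fit with 3 groups sharing 1 spread. Columns were matched to libraries by name. Coordinates and lengths came from GENCODE 44 (21281 identifiers, 99.9%), promoters from RefSeq. The code was tested on simulated data. Intervals cover the spread between libraries, and errors of counting cover counting alone.

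The members and gene lists were chosen with earlier results of these data known. Named were the members, GRASLND, MITF, the 3 largest passing changes per list under each hairpin, the nearest tested neighbours that passed and the 5 genes most like the members, with exceptions marked where they occur. Alternatives covered pseudocount, minimum mean, scaling, variance trend, recovered reads, replicate numbers, the groups in the fit and each library left out.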

Additional observations from a re-analysis of the deposited data

Results flagged for a closer look

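Of 27 genes checked (the 10 pigment genes, GRASLND and the 16 pathway genes named by their change against shlacZ), sh4 and sh8 differed in 13 past an adjusted p of 0.05 in the test of the difference itself (limma), given here as sh4 minus sh8 on the log2 scale. Among the pigment genes these were TYRP1 (-1.54), DCT (-2.30), PMEL (-0.71), MLANA (-1.01) and GPR143 (-0.75). Of those 16 pathway genes, AP1S2 (-0.76), AP3S1 (-0.67), SEMA6A (-1.13) and TRPM1 (-1.62) were lower under sh4, and CHL1 (1.12), EXPH5 (2.50), MCOLN3 (0.55) and RAB36 (1.66) were higher. The normalized count of RAB36 averaged 75.7 ± 12.4 with shlacZ, 208 ± 22.6 with sh4 and 66.8 ± 21.1 with sh8. Over all 99 pathway genes tested, MITF (-0.59) among them, 15 were lower and 6 higher in sh4 against sh8. Of all genes tested, 3.33% were lower and 3.67% higher in that comparison. The 16 pathway genes were named for their largest passing changes against shlacZ, most of them under sh4. Such a choice favours genes that differ between the hairpins, so the count of 13 describes these genes and tests nothing.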

How the results depend on the processing

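Over 17 alternatives, the 40 results on single pigment genes gave 680 values, of which 603 kept direction and side of the threshold, 48 lost it, 20 gained it and 9 changed sign. TYRP1, DCT, PMEL, MLANA and GPR143 passed under sh4 in all 17, OCA2 in 16, SLC24A5 in 11 and RAB27A in 4. The sign changed in values that had not passed. TYR in sh4 against sh8 was 0.10 with quantile normalization, 0.01 with library totals, and -0.22 to 0.10 over all alternatives (0.01 and 0.08 without the second sh4 or sh8 library). With 1 library left out, OCA2 in sh4 against sh8 ranged from -0.83 to 0.10, SLC45A2 from -0.32 to 0.03 pooled and from -0.18 to 0.23 under sh4 (-0.15 without the second sh4 library), and SLC24A5 under sh8 from -0.23 to 0.01.

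Of the 10 pigment genes, the pooled fit passed 2. It passed 1 with quantile normalization, 0 without the variance trend and 6 with the mean of both hairpins in 3 groups, and 0 to 5 with 1 library left out. Under sh4 (8 passed) leaving out 1 library gave 5 to 7. Under sh8 (0 passed) it gave 0 to 2, quantile normalization gave 1 and only the groups compared in the fit 2. Between hairpins (5 passed) it gave 2 to 5, and no variance trend 2. Of the 99 other pathway genes, the pooled fit passed 10, against 1 without the trend, 35 with the mean in 3 groups and 1 to 16 without 1 library. Under sh4 (43 passed) the range was 27 to 52. Under sh8 (6 passed) it was 1 to 13, with 10 by quantile normalization and 1 without the trend. Between hairpins (21 passed) it was 5 to 33, with 7 without the trend. The pooled log2 fold change of GRASLND was -0.99 to -0.73 without 1 library (adjusted p 0.0162 to 0.178), and had an adjusted p of 0.0805 without the trend (-0.85). The fits without 1 library also have fewer samples, and the cause of these changes was not tested.

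Libraries of different groups shared only a replicate number. Correlations of their deviations ran from -0.08 to 0.34 for equal numbers and from -0.34 to 0.23 for unequal ones. With 2 libraries in a hairpin group the deviations mirror each other, so these values are not independent and do not decide whether the numbers mark a block. With the replicate block the pooled fit passed 0 pigment genes and 1 pathway gene, sh8 passed 2 and 12, and GRASLND stood at -0.90 (adjusted p 0.150). Over all genes 1840 passed lower and 1624 higher under sh4, and 513 and 566 between hairpins. Rescaled to library totals they were 1491 and 2182, and 425 and 859.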
